A study of Homo sapiens with 66 samples.

Results

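Hypoxia-inducible factor (HIF) peaks at the ARRDC3 locus were examined in 50 deposited peak lists. Sites were chosen by their calls: every peak centred from 179.1 kb downstream to 120.9 kb upstream of the ARRDC3 transcription start site (TSS) on chromosome 5 of GRCh37 (hg19) was collected, and overlapping peaks were merged. The window held 103 of the 131131 peaks on chromosomes 1 to 22, X and Y, and 11 of the 50169 merged sites. The calls are therefore given as a description, and the main tests were made only on the rank and position of peaks within their lists. An alternative used the score over the median score of the list.

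ARRDC3 is an α-arrestin, one of a family of adaptor proteins that bring HECT ubiquitin ligases of the NEDD4 family to receptors at the cell surface and on endosomes. HIF binds DNA as a dimer of an oxygen-regulated α-subunit, HIF-1α or HIF-2α, with the constitutive partner HIF-1β, and its DNA target, the hypoxia response element (HRE), has the core ACGTG or GCGTG. AP-1 factors, dimers of the JUN and FOS families, bind TGACTCA or TGAGTCA at many enhancers. Enhancers can act on promoters over long distances, and a peak list does not show which gene a site acts on.

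The series used chromatin immunoprecipitation with sequencing (ChIP-seq) in duplicate, with polyclonal antibodies to HIF-1α (PM14), HIF-2α (PM9) and HIF-1β (Novus), in 25 groups of 2 libraries. Unmodified HKC-8 cells, a renal tubular line, were kept for 6 h in 3% oxygen or for 6, 16 and 48 h in 0.5% oxygen (severity and duration experiment). The knockout experiment had HKC-8 cells that were wild type (WT), HIF-1α KO or HIF-2α KO, the KO cells made by CRISPR-Cas9 disruption, all after 16 h at 0.5% oxygen, and the KO cells were analysed here with HIF-1β and the remaining α-subunit. RCC4, a renal carcinoma line without functional VHL, was in normoxia, and HepG2, a liver cancer line, had 16 h at 0.5% oxygen. The KO cells are described in the study as single clones, so that genotype and clone cannot be told apart. A difference between lines cannot be told apart from a difference between experiments, nor in RCC4 from oxygen level.

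List length ranged from 237 to 1793 peaks for severity and duration, from 915 to 8279 for the knockouts with their WT, from 911 to 5680 for RCC4 and from 3470 to 6851 for HepG2. Read depth is unknown, and a site absent from a list can lie just under the limit of the peak caller. In HepG2 the share of peaks within 1 kb of a protein-coding TSS was 6.73% and 28.7% in the libraries labelled HIF-1α, and 30.6% and 8.08% in those labelled HIF-2α, so the replicates of each label stood far apart and the shares crossed between the labels. Whether the labels of a HIF-1α and a HIF-2α library were exchanged was not tested. Comparisons of the antibodies are therefore also given without HepG2.

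ARRDC3 (ENSG00000113369.9_8) lies on the minus strand at 90664448 to 90679134, and distances below are from its TSS at 90679134. The other annotated genes of the window are the lncRNAs LUCAT1 (ENSG00000248323.8_12, minus strand, 90350651 to 90610364), ARRDC3-AS1, ENSG00000212930, ENSG00000251093, ENSG00000234292, ENSG00000286638 and ENSG00000241059, the snRNA gene RNU4-90P and the pseudogenes ENSG00000240388 and RAB5CP2. ARRDC3 is the only protein-coding gene there. One site, at 90575210 to 90578078 and 102.6 kb downstream of the ARRDC3 TSS, is called the distal site here. Its median peak centre, 90576541, lies inside LUCAT1 (33.7 kb from the LUCAT1 TSS at 90610219) and in exons of 2 further lncRNAs that run in opposite directions across it, ENSG00000234292, whose TSS is 418 bp above the centre, and ENSG00000286638, whose TSS is 495 bp below it (above and below mean a higher and a lower coordinate).

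The sequence at the distal site is shown because it carries both motifs within a short stretch. In the windows printed here, 5′ to 3′ on the plus strand of GRCh37, capitals mark the HRE core and the AP-1 motif, each searched on both strands. The first is chr5:90576402-90576641, from just upstream of the first AP-1 motif to 100 bp past the centre of the distal site. The second, chr5:90577358-90577558, is centred on a smaller peak called separately in some libraries. The last, chr5:90515013-90515213, is the centre of a neighbouring site 164.0 kb from the ARRDC3 TSS.
Distal site: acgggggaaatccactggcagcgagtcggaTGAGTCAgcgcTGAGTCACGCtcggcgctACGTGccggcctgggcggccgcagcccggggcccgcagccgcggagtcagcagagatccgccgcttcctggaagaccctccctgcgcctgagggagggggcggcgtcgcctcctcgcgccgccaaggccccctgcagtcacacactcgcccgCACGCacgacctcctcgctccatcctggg
Second peak of the distal site: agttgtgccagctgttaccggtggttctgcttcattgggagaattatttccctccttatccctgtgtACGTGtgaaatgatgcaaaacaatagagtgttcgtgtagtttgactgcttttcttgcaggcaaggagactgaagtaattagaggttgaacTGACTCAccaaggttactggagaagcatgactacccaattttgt
164.0 kb site: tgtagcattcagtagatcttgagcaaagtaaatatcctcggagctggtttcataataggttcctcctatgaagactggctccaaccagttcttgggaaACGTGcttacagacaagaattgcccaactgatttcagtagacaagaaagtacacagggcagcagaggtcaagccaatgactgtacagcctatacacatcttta

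Within 100 bp of its centre the distal site had 3 HRE cores, starting 93 and 80 bp below and 72 bp above the centre. An AP-1 motif, TGAGTCA, started 98 bp below the centre. Its last bases, CA, are also the first of CACGC, which is the HRE core GCGTG on the minus strand. A further TGAGTCA started 109 bp below the centre, just outside the 100 bp searched. The 2 AP-1 motifs and 2 of the HRE cores thus lay within the interval from 90576432 to 90576465, and only 1 of the 3 HRE cores was ACGTG. Over the whole 2869 bp of the merged site there were 8 HRE cores and 3 AP-1 motifs. Of the 50169 merged sites of the series, 34.0% had at least 1 HRE core within 100 bp of the centre, 3.7% had 3 or more, 8.0% had an AP-1 motif and 3.35% had both. Among the 25 sites called in at least 45 libraries these shares were 88.0%, 32.0%, 28% and 28%. GC content of the 201 bp about the centre was 75.1% at the distal site and 37.3% to 61.2% at the 10 other sites of the window.

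A peak was called at the distal site in 50 of 50 libraries, 16 with HIF-1α, 16 with HIF-2α and 18 with HIF-1β. Over all merged sites 0.00399% were called in every library, which is 2 sites, the other lying nearest to NDRG1. Counting only sites with a call in the experiment concerned, 0.0171% of 17555 were called in all libraries of the severity and duration experiment and 2.47% of 13059 in all of the knockout experiment. The other sites of the window were far less often called. They were found in 15 libraries at 86.7 kb, in 10 at 89.7 kb, in 9 at 164.0 kb and in 4 at 71.4 kb, and 6 sites were found in a single library each. The nearest sites outside the window, 187.7 kb downstream (90491411 to 90491553) and far upstream (90894308 to 90894449), had a peak in 1 library each.

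**Figure D1:**
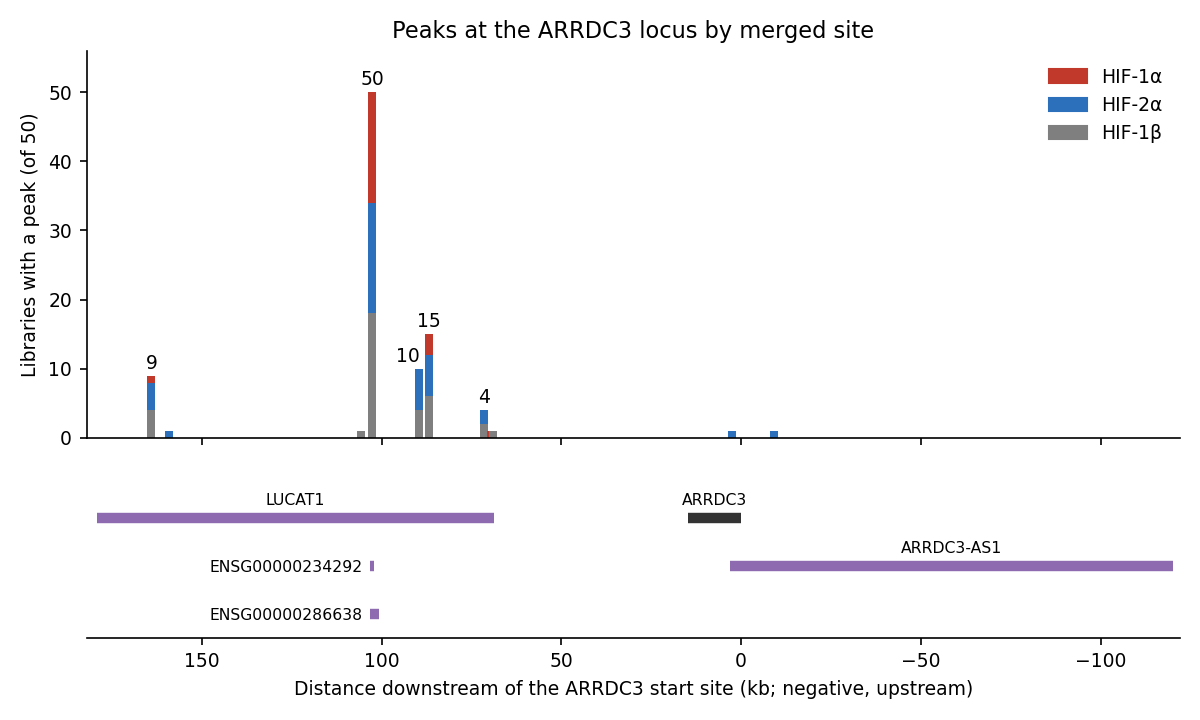
Number of libraries with a peak at each of the 11 merged sites (bars, coloured by antibody) against distance from the ARRDC3 TSS in kb, with gene extents underneath (LUCAT1 and ARRDC3-AS1 run past the edges; smaller RNA genes and pseudogenes are left out). The distal site at 102.6 kb had a peak in 50 libraries, and the next most often called site, at 86.7 kb, in 15.

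Within 1 kb of the main ARRDC3 TSS no library had a peak, which was so for 73.7% of 19821 protein-coding genes. One library of 50, HepG2 HIF-2α replicate 1, had a peak with its centre within 1 kb of the TSS of any of the 7 ARRDC3 transcripts. That peak, at 90676369 to 90677019, was 0.143 kb from an alternative TSS and 2.44 kb from the main one, and its score of 71.43 placed it at 49.6% of its list. A peak 9.2 kb upstream was present in RCC4 HIF-2α replicate 1 alone, at 61.8% of its list. In the 2 ARRDC3 promoters of RefSeq (GRCh38.p14, 300 bp about the TSS) neither motif was found, where 48.4% of 35116 promoters had an HRE core and 4.95% an AP-1 motif. The ARRDC3-AS1 promoter window, which overlaps 1 of these 2 windows, had 1 HRE core, so the absence depends on where a window ends. These letters being absent from the ARRDC3 windows says nothing of the factors.

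To compare libraries, the strength of a site was expressed as the position of its best peak in the list sorted by score, in percent of the list (top percent, ties at their mean), so that a low value is a strong site. This allows only in part for the different lengths of the lists, since the lowest value possible still depends on list length. It is a place among the peaks of that library and not a measure of bound protein. For HIF-2α the distal site was among the strongest peaks of every library. Its top percent was lowest at 0.0334%, had a median of 0.313% and was highest at 2.15%, and it was in the first 1% of the list in 15 of 16 libraries. In 4 of these lists it was the best peak of all, namely both at 16 h and replicate 1 at 48 h of 0.5% oxygen, and RCC4 replicate 2. For HIF-1β the lowest, median and highest values were 0.0968%, 0.717% and 5.65%. For HIF-1α they were 0.380%, 3.39% and 96.2%, with 3 of 16 libraries in the first 1%. The highest HIF-1α value came from a single list, replicate 2 in 3% oxygen, in which the score of 50.44 was close to the lowest that the caller admits.

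Values by library were as follows for the HIF-α antibodies in HKC-8. At 6 h of 0.5% oxygen HIF-1α was at 2.21% and 1.67% and HIF-2α at 0.141% and 0.335%. After 16 h HIF-1α was at 3.05% and 4.94%, and HIF-2α at 0.0835% and 0.0951%. After 48 h HIF-1α was at 3.73% and 6.80%, and HIF-2α at 0.0723% and 0.844%. In each of these 3 conditions both HIF-1α libraries placed the site behind both HIF-2α libraries. In 3% oxygen HIF-1α was at 3.92% and 96.2% and HIF-2α at 2.15% and 0.307%. In WT cells of the knockout experiment HIF-1α was at 11.97% and 1.43%, and HIF-2α at 0.143% and 0.319%. In RCC4 HIF-1α was at 0.757% and 0.472% and HIF-2α at 0.104% and 0.0334%. These 3 conditions did not overlap either, whereas in HepG2 HIF-1α (1.70% and 0.380%) lay on both sides of HIF-2α (0.906% and 0.667%).

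**Figure D2:**
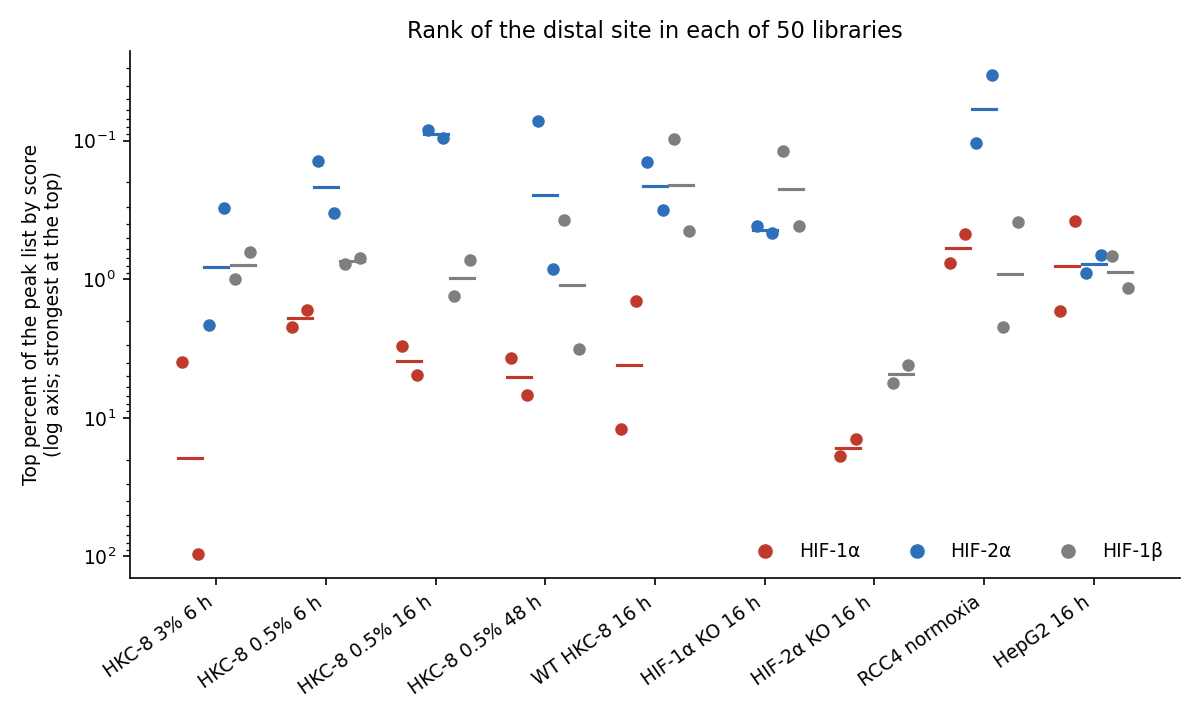
Top percent of the distal site in each of 50 libraries (points) by condition and antibody, on an inverted log axis with the strongest ranks at the top; horizontal lines are geometric means of 2 libraries. HIF-2α lies above HIF-1α without overlap in 6 of the 7 conditions that have both, HepG2 being the exception.

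Over the 7 conditions the distal site was at 9.94% for HIF-1α and 0.443% for HIF-2α, means of 14 libraries each. The difference of 9.50 percentage points passed an exact permutation test with labels exchanged within conditions (two-sided, 28 libraries, p = 3.57e-05, adjusted p = 0.000429 over 12 tests). HIF-1α had the higher mean in 6 of 6 conditions other than HepG2, and also in HepG2 as labelled, where the direction rests on the labels in doubt. The size rests on the library at 96.2%: without HIF-1α replicate 2 in 3% oxygen the difference was 2.91 points. On a log2 scale, which is less swayed by it, the difference was 3.60 (exact permutation p = 2.86e-05, adjusted p = 0.000343), and without HepG2 it was 11.04 points (exact permutation p = 4.29e-05, adjusted p = 0.000514). Leaving out either HIF-2α library in 3% oxygen brought the exact permutation p to 0.333, because the library at 96.2% then shares its condition with a lone HIF-2α value.

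How often other sites showed this order varied by condition. In WT cells, 66.5% of 868 sites called in all 4 HIF-α libraries had both HIF-1α ranks behind both HIF-2α ranks. The share was 37.4% of 460 sites in RCC4, 33.3% of 81 at 16 h, 10.5% of 38 at 6 h and 2.27% of 793 in HepG2, with 22.2% of 9 at 48 h and 14.3% of 7 in 3% oxygen. Among the 25 sites called in at least 45 libraries, the mean log2 top percent of HIF-1α minus HIF-2α had a median of −0.56, and 9 of the 25 were above 0. The distal site had the highest value, 3.60, and 4.0% of the 25 (itself) reached it. It was followed by a site 0.49 kb from a TSS of BHLHE40, a hypoxia-responsive transcriptional repressor, at 2.45 and a site near SEMA4B at 2.44. At these 25 sites the mean was taken over the libraries that called the site, so absent calls did not count, while the distal site was called in all. Its HIF-2α peaks were the first of both lists at 16 h, and all had the score of 3100 in WT cells and RCC4. The size of 3.60 therefore depends in part on list length and ties. BHLHE40 and SEMA4B were chosen for mention after their values were seen.

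**Figure D3:**
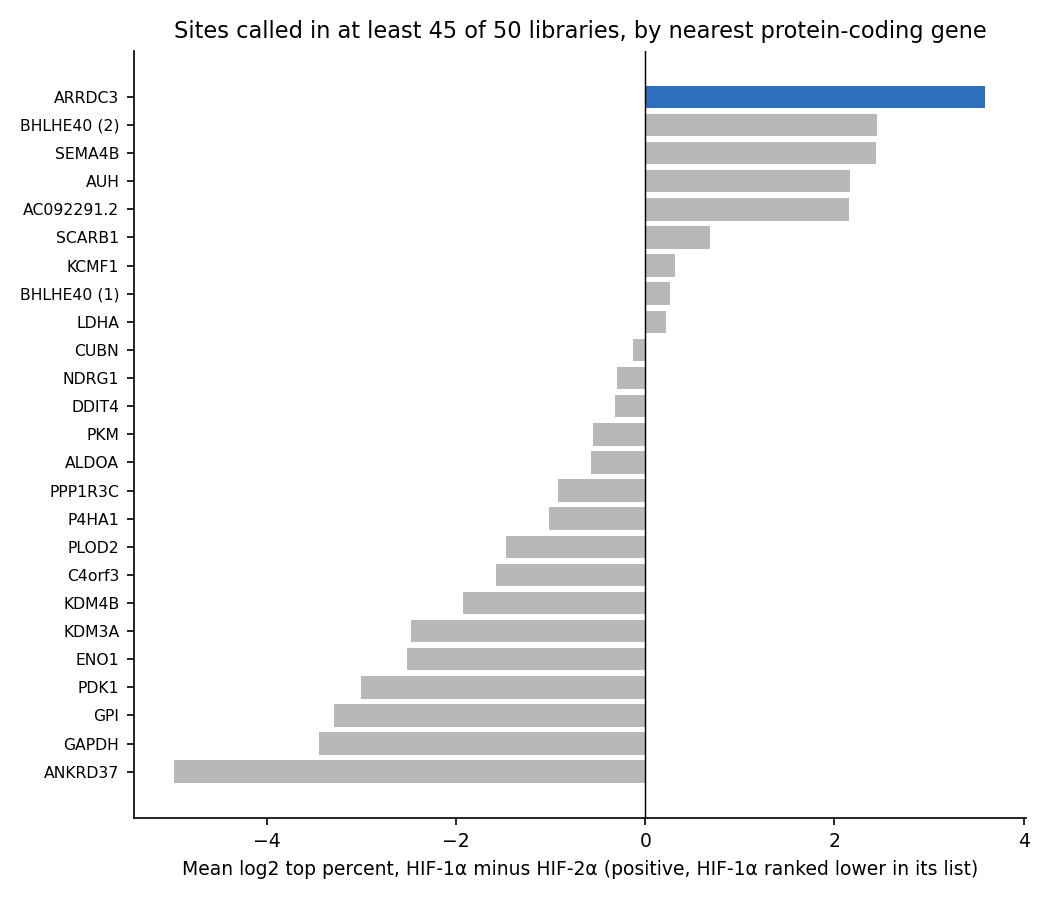
Mean log2 top percent of HIF-1α minus HIF-2α (bars) for the 25 sites called in at least 45 of 50 libraries, named by nearest protein-coding gene and sorted; the distal site is in blue. It has the highest value, 3.60, and ANKRD37 the lowest, −4.98.

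The rank of the distal site with HIF-1β was not shown to differ from that with the α-subunits. It was at 0.978% on average (14 libraries) against 5.19% for HIF-1α and HIF-2α together (28 libraries). The difference of −4.22 points had p = 0.417 in a permutation test (42 libraries, two-sided, adjusted p = 0.556), and the direction was mixed, with a lower mean for HIF-1β in 5 of 7 conditions. On the log2 scale the difference was −0.16. HIF-1β gave 0.779% and 0.708% at 6 h. It gave 1.33% and 0.725% at 16 h, and 0.375% and 3.19% at 48 h. In 3% oxygen it gave 0.996% and 0.636%. The replicates at 48 h were further apart than the other 3 conditions were from each other. At 6 h and 16 h both HIF-1β libraries lay behind both HIF-2α libraries and ahead of both HIF-1α libraries. At 48 h, in 3% oxygen and in WT cells HIF-1β overlapped HIF-2α and lay ahead of HIF-1α. In RCC4 HIF-1β overlapped HIF-1α and lay behind HIF-2α, and in HepG2 it overlapped each of them. HIF-1β was not tested against each α-subunit separately.

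Severity and duration of hypoxia were compared next, within antibody. In 3% oxygen the mean top percent was 17.4%, and in 0.5% oxygen at 6 h 0.973% (6 libraries each), a difference of 16.4 points that did not pass adjustment (exact permutation p = 0.0556, adjusted p = 0.222), and 28.6% of the 7 sites called in all 12 libraries moved down as far. The HIF-1α libraries in 3% oxygen were both behind those in 0.5% oxygen, while HIF-2α and HIF-1β overlapped between the 2 oxygen levels. With the score divided by the median score of its list in place of the rank, the value was lower in 3% oxygen. The difference was 1.09 on the log2 scale (exact permutation p = 0.00926, the smallest possible, adjusted p = 0.0370). This ratio uses the size of the score, and read depth is unknown, so it does not establish weaker binding. Without HIF-1α replicate 2 the difference in top percent fell to 1.02 points. The 16 h libraries were at 1.70% and differed from 6 h by 0.730 points (exact permutation p = 0.157, adjusted p = 0.378), and 35.3% of 34 sites moved down at least as far. Both HIF-1α libraries were further down their lists at 16 h than at 6 h, and both HIF-2α libraries further up. The HIF-2α peaks at 16 h were the first of their lists, so their top percent there is set by list length. At 48 h the mean was 2.50%, which was 1.53 points from 6 h (exact permutation p = 0.0833, adjusted p = 0.25). In all 8 sites called in each of these 12 libraries, the distal site included, the change from 6 to 48 h was at least as large, with a median of 4.0 points.

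The knockout experiment asked whether one α-subunit affects binding of the other. With 2 libraries against 2 the smallest exact permutation p is 0.33 (adjusted p = 0.5), so none of these comparisons can pass the threshold. No library of the deleted subunit was analysed here, so the genotype was not checked by its own peaks. HIF-2α remained among the strongest peaks without HIF-1α: it was at 0.411% and 0.466% in HIF-1α KO cells and at 0.143% and 0.319% in WT cells. The means of 0.439% ± 0.0390 and 0.231% ± 0.124 (SD, n = 2 each) differed by 0.208 points, and the groups did not overlap. Of 2604 sites called in all 4 libraries, 45.9% moved down by as much or more, and 10.9% did so on the log2 scale, on which the difference was 1.04. All 4 peaks had the score of 3100 at which the caller's values pile up, so their order reflects how many peaks of the list share that value and how long the list is.

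HIF-1α was still called in HIF-2α KO cells, at 18.9% and 14.3%, with WT libraries at 11.97% and 1.43%. The means were 16.6% ± 3.23 and 6.70% ± 7.45 (SD, n = 2 each). The groups did not overlap, and the difference of 9.90 points was of the order of the WT spread. The study reports slightly less HIF-1α binding in these KO cells, alongside slightly less HIF-1α protein, which it says may reflect clonal variation. Of 527 sites called in all 4 libraries, 37.8% moved down at least as far. On the log2 scale the difference was 1.99, reached by 7.78% of these sites. HIF-1β was at 5.65% and 4.12% in HIF-2α KO cells and at 0.0968% and 0.447% in WT cells. Both KO libraries were behind both WT libraries, by 4.61 points (4.89% ± 1.08 against 0.272% ± 0.248, SD, n = 2 each). The same or a larger drop was seen at 70.8% of 1376 sites called in all 4 libraries, whose median change was 15.2 points. On the log2 scale the order turned: the top percent rose by 4.54 at the distal site, against a median of 1.15, and 1.53% of the sites rose as much. The distal site was near the head of the WT lists, where a change in points is small for a given ratio. The WT peaks had scores of 3127.1 and 3100, the latter shared with other peaks. Their ranks, and with them the size of the ratio, therefore depend in part on ties and list length. In HIF-1α KO cells HIF-1β was at 0.118% and 0.415%, which overlapped WT, with a difference of −0.00541 points (exact permutation p = 1). Of these 4 peaks 3 had the score of 3100 and the other 3127.1, so the ranks again follow ties and list length and could not show a change in strength. Among 2390 sites called in all 4 of those libraries the median change was 4.77 points, and 31.8% moved up by as much or more. On the log2 scale the distal site moved down by 0.090, and 63.6% of the sites moved down at least as far.

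Cell lines were then compared with WT HKC-8 cells of the knockout experiment. In RCC4 the mean top percent over the 3 antibodies was 0.657% and in WT HKC-8 2.40% (6 libraries each), a difference of −1.74 points (exact permutation p = 0.556, adjusted p = 0.667). HIF-1α was further up its lists in RCC4 without overlap. HIF-2α values did not overlap either, but all 4 peaks had the score of 3100, so their order follows ties and list length, whereas HIF-1β, at 2.195% and 0.383%, overlapped WT. Leaving out WT HIF-1α replicate 1, at 11.97%, brought the difference to 0.012 points. HepG2 was at 0.915% on average and differed from WT HKC-8 by −1.49 points (exact permutation p = 0.880, adjusted p = 0.960). Of 169 sites called in all 12 libraries 60.9% were as far up in HepG2, and in RCC4 it was 31.4% of 153 sites. HIF-2α and HIF-1β, the latter at 0.681% and 1.15% in HepG2, were further down in both HepG2 libraries than in both WT libraries, and HIF-1α overlapped. The WT peaks of HIF-2α and HIF-1β had scores of 3100 or 3127.1, so their ranks depend in part on ties and list length. The labels of the HepG2 HIF-1α and HIF-2α libraries are in doubt. Without WT HIF-1α replicate 1 the difference was 0.27 points.

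By group mean, the top percent of HIF-2α was lowest in RCC4 (0.0688% ± 0.0501), then at 16 h (0.0893% ± 0.00826), in WT cells (0.231% ± 0.124), at 6 h (0.238% ± 0.137), in HIF-1α KO cells, at 48 h (0.458% ± 0.546), in HepG2 (0.786% ± 0.169) and in 3% oxygen (1.23% ± 1.304; SD, n = 2 each). Neighbours in this order overlapped, except 16 h and WT and, further on, 6 h and HIF-1α KO. At 16 h both peaks were the first of their lists, and in RCC4, WT and HIF-1α KO cells all had the score of 3100. The places of these 4 groups are therefore set by list length and ties and give no order of strength. For HIF-1α the order was RCC4 (0.614% ± 0.202), HepG2 (1.04% ± 0.934), 6 h (1.94% ± 0.380), 16 h (3.99% ± 1.34), 48 h (5.27% ± 2.175), WT, HIF-2α KO and 3% oxygen (50.1% ± 65.2). Here the neighbours 6 h and 16 h, and WT and HIF-2α KO, did not overlap. HIF-1β groups ran from 0.266% ± 0.210 in HIF-1α KO to 4.89% ± 1.08 in HIF-2α KO, and the other 7 groups lay between 0.272% and 1.79%.

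The shape of the peak differed between experiments. Width at the distal site ranged from 286 to 1161 bp (median 588 bp) with severity and duration, from 1742 to 2842 bp (median 2449 bp) with the knockouts and their WT, 907 to 2693 bp in RCC4 and 889 to 1302 bp in HepG2. In 8 libraries a second, smaller peak lay beyond the first, with a median centre 917 bp above that of the distal site. It was called in 3 HIF-2α, 4 HIF-1β and 1 HIF-1α libraries, 7 of them from the severity and duration experiment and 1 from RCC4. Its scores were 57.04 to 149.7 and its ranks 12.1% to 68.5%, far behind the main peak of the same lists. The 201 bp window about that place held 1 HRE core and 1 AP-1 motif. A ninth library, HIF-1α replicate 1 at 48 h, had its second peak 202 bp above the centre. In the knockout experiment each library had a single peak that reached past this second position.

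The centre of the peak was compared between HIF-1α and HIF-2α. Relative to the median centre the mean was −15.4 bp for HIF-1α and 58.9 bp for HIF-2α. The difference of −74.4 bp passed the exact permutation test (two-sided, 28 libraries, p = 0.00405, adjusted p = 0.0243) and had the same sign in 6 of 6 conditions other than HepG2. In HepG2 it was −13.5 bp as labelled, with the labels in doubt, and without HepG2 the difference was −84.5 bp (exact permutation p = 0.00523, adjusted p = 0.0314). By condition it ran from −322.5 bp in RCC4 and −84.5 bp in WT cells to −1 bp at 6 h, and the groups did not overlap at 16 h, in WT cells or in RCC4. The call did not hold for peaks with a score of at least 100 (−68.3 bp, adjusted p = 0.0691 by the same exact test), and the distance from the centre to the nearest HRE core differed by −1.29 bp (exact permutation p = 0.896). Centres of wide peaks follow their edges, and peak summits were not analysed here. Peak centres were not compared at other sites, so the shift is not shown to be particular to the distal site.

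**Figure D4:**
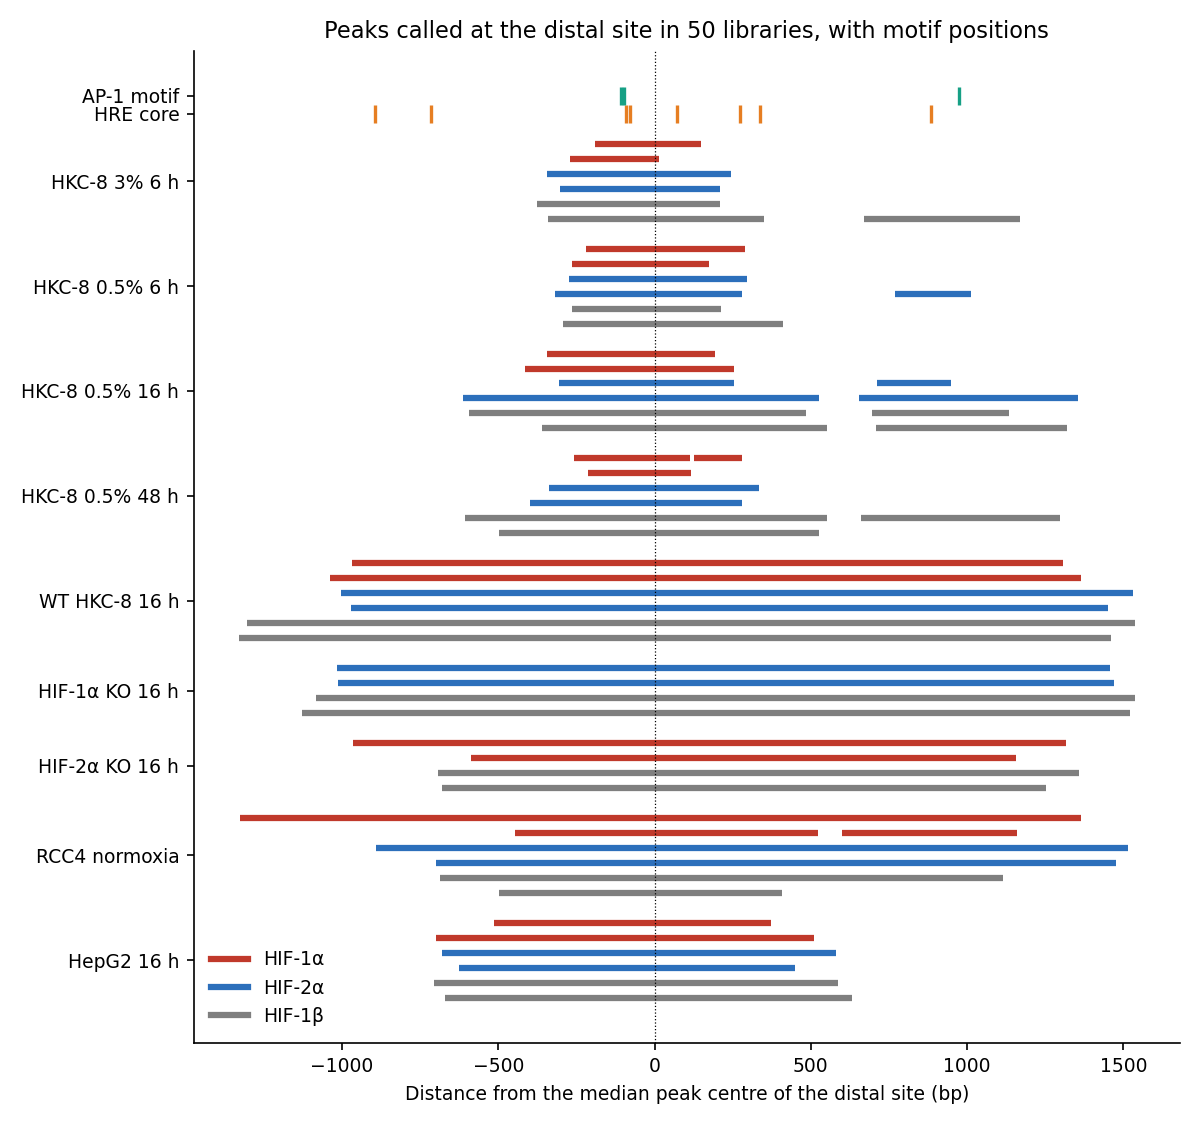
Extent of each peak called at the distal site (horizontal bars, 1 row per library, coloured by antibody) in bp from the median peak centre, with HRE cores and AP-1 motifs marked at the top. Peaks of the severity and duration experiment are 286 to 1161 bp wide, 8 libraries have a separate second peak near 917 bp, and single peaks of 1742 to 2842 bp cover both positions in the knockout experiment.

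Between the distal site and the LUCAT1 TSS, and on its far side, lay neighbouring sites with a different pattern of calls. The 86.7 kb site (90591583 to 90593289, LUCAT1 intron) was called in both WT libraries of each antibody, at 15.1% and 3.53% in HIF-2α lists, 7.58% and 3.43% in HIF-1β lists and 61.8% and 47.8% in HIF-1α lists. HIF-1α KO cells had it at 3.79% and 4.10% for HIF-2α and at 6.20% and 5.63% for HIF-1β. In HIF-2α KO cells no HIF-1α peak was called, and HIF-1β peaks remained at 87.1% and 94.6%, with scores of 56.75 and 52.30. In RCC4 both HIF-2α libraries (41.2% and 20.3%) and 1 HIF-1α library (60.0%) had the site.

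The 89.7 kb site, in a LUCAT1 intron, was called with HIF-2α and HIF-1β and in 0 of 16 HIF-1α libraries. The WT HIF-1α lists held 1913 and 1535 peaks, and the WT HIF-2α lists 4537 and 6749. The share of all sites called with HIF-2α that lack any HIF-1α call was not counted, so the 0 does not show selectivity. WT cells had it at 9.32% and 6.53% for HIF-2α and at 11.2% and 9.81% for HIF-1β. In HIF-1α KO cells it was at 20.03% and 7.997% with HIF-2α and at 22.7% and 11.1% with HIF-1β, and in RCC4 at 22.2% and 12.5% for HIF-2α.

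The 164.0 kb site (90514411 to 90515691, a LUCAT1 exon) had 1 HRE core, ACGTG, 2 bp below its centre. It was called in HKC-8 of the knockout experiment alone. HIF-2α was at 31.4% and 10.3% in WT and at 18.1% and 15.5% in HIF-1α KO cells, and HIF-1β at 31.9% and 15.2% and at 32.5% and 18.3%. Only WT replicate 2 of HIF-1α had it, at 37.3%. The 71.4 kb site (90607037 to 90608565, a LUCAT1 exon) was found in replicate 2 alone of WT and HIF-1α KO cells with HIF-2α and HIF-1β, at 69.3% to 78.3%. The 6 sites found in a single library each ranked at 49.6% to 83.9% of their lists, and 1 of them spanned the LUCAT1 TSS used here (HIF-1β in 3% oxygen, replicate 2). LUCAT1 has 65 annotated transcripts with further TSSs. The centre of the 71.4 kb site was 0.012 kb from 1 of these, and that of a single-library site at 69.7 kb (RCC4 HIF-1α replicate 1) 0.028 kb.

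**Figure D5:**
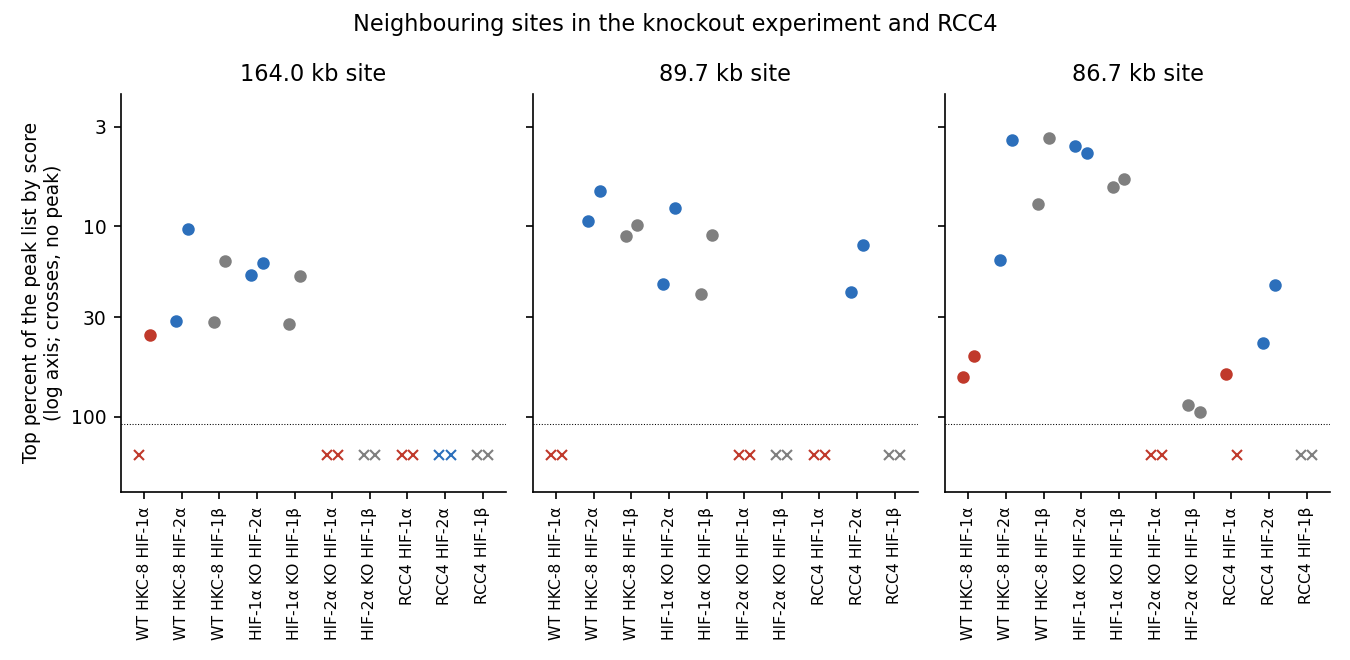
Top percent of the 164.0, 89.7 and 86.7 kb sites in the knockout experiment and RCC4 (points, 1 per library, on an inverted log axis; crosses below the dotted line, no peak called), coloured red for HIF-1α, blue for HIF-2α and grey for HIF-1β. HIF-2α KO libraries show crosses at all 3 sites, apart from 2 HIF-1β points at the 86.7 kb site at 87.1% and 94.6%.

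The 86.7, 89.7 and 164.0 kb sites were in both WT HIF-2α libraries, and each was also in both HIF-1α KO HIF-2α libraries, as were 69.4% of the 3750 sites called in both WT HIF-2α libraries. None of the 3 was in a HIF-2α KO HIF-1α library, where 80.2% of the 3750 were also absent. In the HIF-1β lists of HIF-2α KO cells 2 of the 3 were absent, beside 52.9% of the 5046 sites called in both WT HIF-1β libraries, and in those of HIF-1α KO cells 0 of the 3 were absent, beside 31.3%. No HepG2 library had any of the 3, where 19.6% of the 3750 sites had a HepG2 call, and no library of the severity and duration experiment had any, where 36.7% did. Both RCC4 HIF-2α libraries had 2 of the 3, beside 18.7%. The HIF-2α KO lists held 915 to 2550 peaks and the WT lists 1535 to 8279, and the part of list length in the absent calls was not tested.

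Other genes of the pathway were examined by a peak within 10 kb of a protein-coding TSS in both replicates of at least 1 of the 25 groups. Of 11 genes, 5 met this, and of all 19821 protein-coding genes 17.6% did. Among the 6 α-arrestins these were ARRDC2, with a peak in 20 libraries, all within 1 kb of a TSS, and ARRDC5, with a peak in 10. ARRDC1 and TXNIP, the latter a regulator of thioredoxin and glucose uptake, had a peak in 1 library each, ARRDC4 in 3 and ARRDC3 itself in 2. Among the 5 ligases, NEDD4 had a peak in 30 libraries, WWP2 in 25 and NEDD4L in 22, and 13, 6 and 11 groups respectively had it in both replicates. WWP1 had a peak in 2 libraries and ITCH in 1. Within 1 kb, ARRDC2 and NEDD4L remained, and 8.41% of all genes met that limit.

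Sites that resembled the distal site across libraries were taken from the other 24 called in at least 45 libraries, by the mean absolute difference in log2 top percent. The closest was the BHLHE40 site (chromosome 3, 5018413 to 5022764), with 1.56 over 45 shared libraries. It was followed by a site on chromosome 16 (14456955 to 14460350) 106 kb from AC092291.2, at 1.90 over 45 libraries, and by the SEMA4B site (chromosome 15, 90708150 to 90709941), at 1.93 over 48 libraries. Spearman's rho with the distal site was 0.75, 0.54 and 0.71 at these 3 sites, across libraries that share their condition and list length. By its median rank of 0.741% over all 50 libraries the distal site was the third strongest of the 25 sites, whose median was 2.25%.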

How the data were processed

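Chromatin from HKC-8, RCC4 and HepG2 cells was immunoprecipitated for HIF-1α, HIF-2α or HIF-1β and sequenced. Per the study's methods and the submitters' processing notes, the authors trimmed reads (Trim Galore 0.3.3), aligned them to GRCh37 with BWA and marked duplicates with Picard 1.106. Peaks were found with T-PIC and MACS in control mode, and those found by both were filtered by read count against random regions. The processing notes name MACS alone, the deposited lists were read as MACS calls of each library, and whether the filter was applied to them is not given in the sources used here. The deposited score of each peak was read as −10 log10 of its p-value (lowest 50.0), and 342 peaks in 18 lists shared the value 3100. It was used only for ranks within a list. Input libraries were not analysed here. Sequence and motif content are given for the distal and 164.0 kb sites, and those of the other sites are not reported here.

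Peaks overlapping by 1 bp or more were merged over the 50 lists with Python 3.11.15, and coordinates are 1-based. Genes are from GENCODE 44 mapped to GRCh37, promoters from RefSeq. Groups were compared with two-sided exact permutation tests within condition or antibody (100000 resamples where enumeration was too large), adjusted over 12 tests by the Benjamini-Hochberg method with a threshold of 0.05, and tested on simulated data. Values are mean ± SD over libraries. Replicates are the duplicate experiments named in the labels, and whether they were separate cultures is not given there. Sites called in at least 2 libraries of the window, all annotated genes of the window, 11 pathway genes and the 3 most alike sites are named. The locus, gene lists and tests were chosen with earlier results of these data known. Alternatives were a score of at least 100, log2 ranks, lists of equal length, score over the list median, other distances and motif windows, permutation within replicate number, leaving out replicates and leaving out HepG2. Leaving out single libraries, the log2 scale for other sites in the knockout comparisons, HIF-1β alone and the centre of all peaks in the site were added after seeing the data.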

Additional observations from a re-analysis of the deposited data

Results flagged for a closer look

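At the distal site the change in mean top percent from 6 to 16 h of 0.5% oxygen was 2.06 points for HIF-1α and −0.15 points for HIF-2α. It is listed because both HIF-1α libraries moved down their lists and both HIF-2α libraries moved up. The HIF-2α peaks went from places 2 and 5 at 6 h to place 1 in both lists at 16 h, where the top percent is set by list length. How often other sites showed this pattern by antibody was not counted. The difference between the antibodies was not tested.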

How the results depend on the processing

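The higher top percent of the distal site in HIF-1α than in HIF-2α kept its sign in every alternative run. With lists of equal length the difference was 23.9 points, and with a score of at least 100 it was 26.5 points. It ran from 2.91 to 16.1 points when replicates or single libraries were left out, and passed adjustment in all but 4 runs. Leaving out replicate 1 or 2 of all groups gave 15.6 and 3.39 points. Those runs had 1 library against 1 in each condition and could not pass the threshold. The others were without HIF-2α replicate 1 or 2 in 3% oxygen (adjusted p 0.50 for each by the same exact permutation test). The 3% oxygen difference passed with score over list median (1.09 on the log2 scale, adjusted p 0.0370) and ran from 1.02 to 31.8 points when libraries were left out. The 16 h difference turned negative with a score of at least 100 (−0.72 points) and with score over list median (−0.34 on the log2 scale). The HIF-1β difference between HIF-1α KO and WT turned positive with a score of at least 100 (0.013 points) and on the log2 scale (0.090), and ran from −0.18 to 0.17 when libraries were left out. RCC4 minus WT ran from −3.66 to 0.012 points, and was 1.02 with HIF-1β alone. HepG2 minus WT ran from −3.24 to 0.27, and was 0.53 on the log2 scale and 0.65 with HIF-1β alone. The peak centre difference ran from −82.1 to −66.6 bp when libraries were left out. Without replicate 1 or 2 of all groups it could not pass, again with 1 library against 1 in each condition. It lost its call without HIF-1α replicate 2 or HIF-2α replicate 1 at 6 h, and without HIF-1α replicate 2 in 3% oxygen. The call was also lost with a score of at least 100 (−68.3 bp), with the distance to the nearest HRE core (−1.29 bp) and with the centre of all peaks in the site (−126.3 bp). A score of at least 100 left 4 sites in the window and 0 libraries at the promoter. HRE cores numbered 0 within 50 bp, 8 in the whole site and 1 as ACGTG, and 2 pathway genes had a peak within 1 kb. With labels exchanged within replicate number (replicate block), the HIF-1α minus HIF-2α difference was 9.50 points (adjusted p 0.00293) and the centre difference −74.4 bp (adjusted p 0.0366). That block changed no call. Replicate differences of HIF-1α and HIF-2α correlated from −0.63 to 0.46 across sites by condition, so the numbers were not taken to pair libraries. The causes of these changes were not tested. Read depth is unknown, ranks depend on what else a list holds, and 2 libraries against 2 cannot pass the threshold.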
